A study of Mus musculus with 12 samples.

Results

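The RNA of B cells that had lost CTCF during activation with LPS and IL4 was compared with that of B cells keeping 1 intact Ctcf allele. The comparison covers 11962 of the 12699 genes in the table of the series, namely those with at least 1 CPM (the reads of a gene scaled to a common library size) in at least 3 of the 6 libraries concerned. The tested cells were CTCFfl/fl, with both Ctcf alleles floxed, and the control cells were CTCFfl/+, with 1 floxed and 1 intact allele, 3 libraries each. All mice carried a Cre recombinase that B cells switch on when they are activated, together with a human CD2 (hCD2) reporter, so that Cre was present in the controls as well. The deletion therefore began in culture, in the cells that became hCD2+. Resting splenic B cells (depleted of CD43+ cells) from mice of 8 to 12 weeks were kept for 48 h in 50 µg per ml LPS and 5 ng per ml IL4 as the sample records give them, and the study's methods give other amounts. The hCD2+ cells were sorted, and 2 to 3 mice were pooled for each library. The libraries with the same number are not described as matched, and p-values measure the spread between these pools. In 6 further libraries, 3 of each genotype, the B cells had been activated for 48 h in a co-culture of T cells with antibodies to CD3 (5 µg per ml) and CD28 (1 µg per ml). They enter only where the genotype effect was set against that in LPS/IL4.

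CTCF is a zinc finger protein that binds DNA and halts the cohesin ring as it extrudes chromatin loops, and the loops bring enhancers and promoters together or keep them apart. LPS activates B cells through TLR4 and NF-kB, IL4 activates STAT6, and both together drive proliferation and switching to IgG1. Interferons act through STAT and IRF factors and switch on GTPases of the GBP and IRG families, which attack the vacuoles of intracellular microbes.

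The Ctcf mRNA was checked first. The CTCFfl/fl libraries had 63.1, 69.4 and 78.3 CPM and the CTCFfl/+ libraries had 134, 143 and 146 CPM. The groups did not overlap, and the level in the CTCFfl/fl cells was 49.8% of that in the CTCFfl/+ cells. In limma, on log2(CPM + 0.5), the log2 fold change of CTCFfl/fl over CTCFfl/+ was -1.01 (95% confidence interval -1.21 to -0.80, adjusted p = 0.00034 over 11962 genes). With 3 libraries against 3 an exact two-sided permutation test cannot go below the 0.1 that it gave. The value counts reads along the whole gene, also those from parts that Cre does not remove, and in bulk RNA fewer cells with a transcript and less of it per cell cannot be told apart. All 6 libraries expressed the B-cell markers, with sums over 13 genes of 13780 to 14940 CPM in CTCFfl/fl and 13330 to 15190 CPM in CTCFfl/+ cells. Over 17 T cell markers the sums were 222 to 285 CPM in CTCFfl/fl and 188 to 239 CPM in CTCFfl/+ cells, most of it from Lck, Cd2 and Thy1. Lck had 77.4 to 134 CPM, Cd2 62.3 to 122 CPM and Thy1 13.0 to 38.8 CPM over the 6 libraries. The genes of the T cell receptor complex were low, with Trbc2 at no more than 0.0424 CPM in any library, Cd247 at 1.79 to 4.15 CPM and Cd3g at 0.297 to 2.25 CPM. Cd3e reached 3.05 CPM in CTCFfl/fl replicate 1, Cd3d 2.26 CPM in CTCFfl/+ replicate 2 and Cd4 2.50 CPM in CTCFfl/fl replicate 3, and each had no more than 1.01 CPM in the other libraries. Of 9 NK cell markers 6 were measured, with sums of 13.7 to 18.2 CPM in CTCFfl/fl and 16.9 to 23.2 CPM in CTCFfl/+ cells. Among them the granzyme gene Gzma had 0.509, 0 and 0 CPM in CTCFfl/fl and 1.92, 1.18 and 3.14 CPM in CTCFfl/+ libraries, which lay apart. Its adjusted p was 0.16 in limma, 0.0068 in the edgeR exact test, 0.33 in edgeR's quasi-likelihood test and 0.82 in DESeq2. The mean of Gzma over the 6 libraries was only 1.13 CPM, and it passed the filter of 1 CPM only through the 3 CTCFfl/+ libraries. The filter thus favoured such a gap, and the gap and p-values of Gzma support nothing by themselves. Prf1, another of these markers, had 12.5, 8.63 and 12.6 CPM in CTCFfl/fl and 12.4, 9.33 and 6.56 CPM in CTCFfl/+ libraries, which overlapped. The receptor gene Klrd1 was listed at 0 in 5 of the libraries.

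Beyond Ctcf, the genotype moved few genes at the adjusted threshold of 0.05. limma called 4 genes lower in CTCFfl/fl (0.0334% of those tested) and none higher (0%). At an unadjusted p under 0.05 it held 796 genes, or 6.65%, of which 329 were higher and 467 lower. On the reads recovered from the CPM the edgeR exact test called 22 genes lower (0.184%) and 10 higher (0.0836%), and DESeq2 called 27 lower (0.226%) and 10 higher (0.0836%). The quasi-likelihood test of edgeR called 3 lower and 1 higher, Trpc2, which passed the filter only through the CTCFfl/fl libraries. At least 1 of the 4 tests called 46 genes, and 3 genes (Ctcf, Carmil2 and Spata13) were called by all of them. The limma count was sensitive to single libraries, with 62 calls without CTCFfl/+ replicate 3 and 40 without CTCFfl/fl replicate 2, against 2 without CTCFfl/+ replicate 2. The median log2 fold change over all genes was -0.001 and 83.7% of the genes lay within 0.25 of 0. Of the 63 genes that differed by 1 log2 unit or more, 18 higher and 45 lower, 43 had a mean below 5 CPM.

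**Figure D1:**
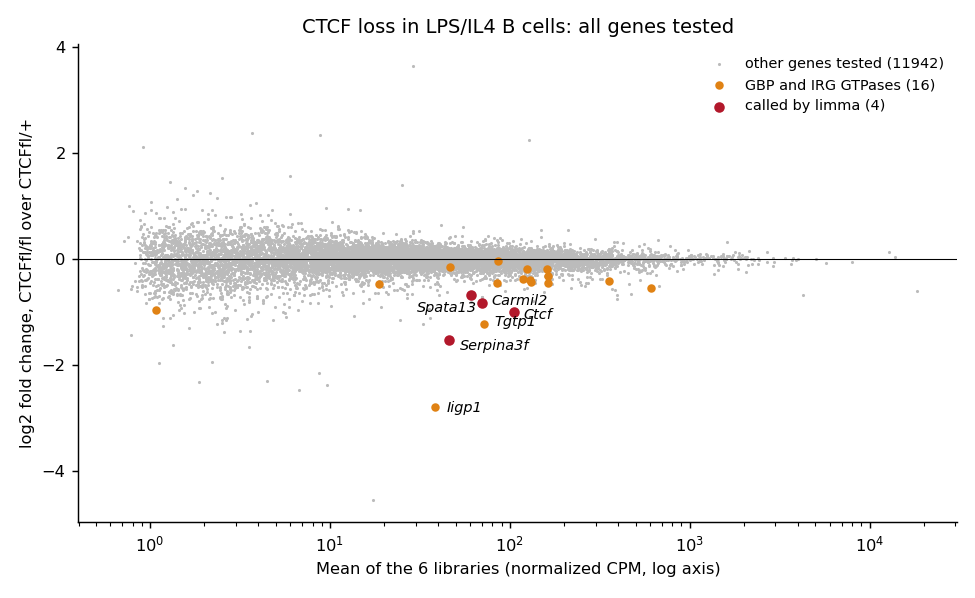
Each point is 1 of the 11962 genes, with the mean CPM of the 6 LPS/IL4 libraries on a log axis and the log2 fold change of CTCFfl/fl over CTCFfl/+ on the other, and the GBP and IRG genes are in orange. The points spread widely at low levels and lie close to 0 at higher ones, and the 4 genes called by limma all lie below 0.

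Carmil2, which encodes a regulator of actin capping that takes part in costimulatory signalling in T cells, was the call next to Ctcf in strength. It had 53.9, 50.7 and 47.2 CPM in the CTCFfl/fl libraries and 90.2, 85.3 and 95.1 CPM in the CTCFfl/+ libraries. All CTCFfl/fl values were below all CTCFfl/+ values, and the log2 fold change was -0.83 (standard error 0.09, limma adjusted p = 0.0017). Carmil2 is also the neighbour of Ctcf on chromosome 8 of GRCm38, where Ctcf spans chr8:105636568-105682922 on the plus strand. Carmil2 starts 3.352 kb after the end of Ctcf, on the same strand, and spans chr8:105686274-105698187. Its last part overlaps Acd on the opposite strand, and Acd had a log2 fold change of -0.16 (limma adjusted p = 0.86). Whether the floxed locus or the loss of the CTCF protein moved Carmil2 cannot be told apart in this design. In the T cell cultures, which carried the same alleles, its log2 fold change was -0.27 (limma adjusted p = 0.085), and the effect in LPS/IL4 was 0.56 log2 units more negative (limma interaction adjusted p = 0.024).

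The other genes near Ctcf showed smaller differences. Within 250 kb of the Ctcf start 14 further genes were tested, and Carmil2 was the 1 called. Of the 14, 10 had negative and 4 positive log2 fold changes, with a median of -0.09. Pard6a, a polarity protein gene, had 12.4, 11.3 and 8.54 CPM in CTCFfl/fl and 14.2, 13.7 and 13.2 CPM in CTCFfl/+ cells, a log2 fold change of -0.35 (limma adjusted p = 0.73). Without Carmil2 the genes of the window lay between -0.35 and 0.27.

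**Figure D2:**
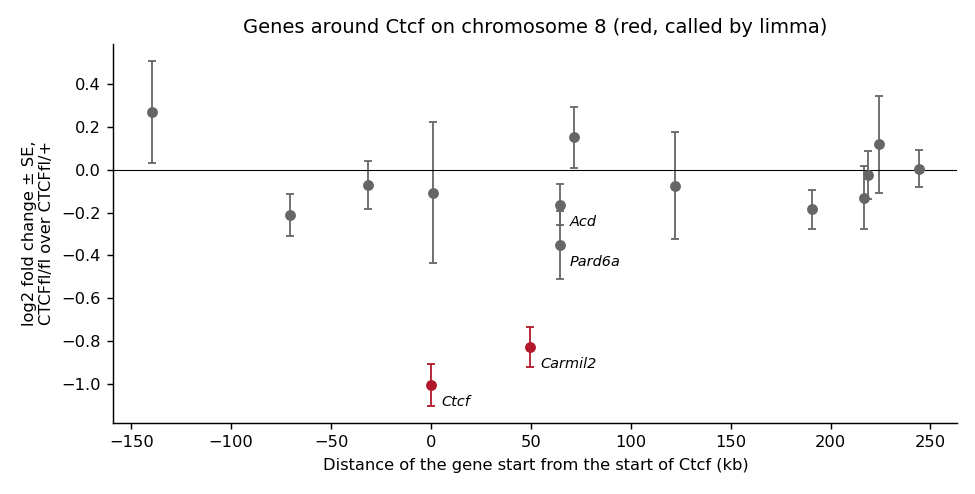
The log2 fold change of CTCFfl/fl over CTCFfl/+, with its standard error as the bar, is plotted against the distance in kb of each gene's start from that of Ctcf. Ctcf and Carmil2 lie at -1.01 and -0.83, and the other 13 genes lie between -0.35 and 0.27.

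Spata13 encodes a guanine nucleotide exchange factor for small GTPases, and it was lower in CTCFfl/fl cells. Its levels were 49.7, 50.6 and 40.8 CPM in CTCFfl/fl and 73.9, 78.7 and 73.3 CPM in CTCFfl/+ libraries, with no overlap. The log2 fold change was -0.68 (standard error 0.10, limma adjusted p = 0.038). The call was lost when any of CTCFfl/fl replicate 3, CTCFfl/+ replicate 1 or CTCFfl/+ replicate 2 was left out (limma adjusted p = 0.13, 0.066 and 0.16), and the direction was kept. In the T cell cultures Spata13 was 1.37 log2 units higher in CTCFfl/fl cells (limma adjusted p = 4.9e-05), and the effects of the 2 cultures differed by -2.05 (limma interaction adjusted p = 8.5e-06).

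Serpina3f, a serine protease inhibitor gene that interferon gamma induces in mouse immune cells, showed the deepest fall of the called genes. It had 25.5, 32.2 and 13.9 CPM in the CTCFfl/fl libraries, against 54.0, 91.5 and 57.6 CPM in the CTCFfl/+ libraries. The groups lay apart, and replicate 2 was the highest library in each genotype. The log2 fold change was -1.52 (standard error 0.24, limma adjusted p = 0.040), with an adjusted p of 1.3e-05 in the edgeR exact test and of 0.062 in DESeq2. Leaving out CTCFfl/fl replicate 1, CTCFfl/fl replicate 3 or CTCFfl/+ replicate 2 ended the limma call (adjusted p = 0.050, 0.11 and 0.16). The adjacent Serpina3g, an inhibitor of cathepsins, had 141, 130 and 97.8 CPM in CTCFfl/fl and 168, 209 and 188 CPM in CTCFfl/+ cells. Its log2 fold change was -0.62, with an adjusted p of 0.13 in limma, 0.027 in the edgeR exact test and 0.003 in DESeq2.

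**Figure D3:**
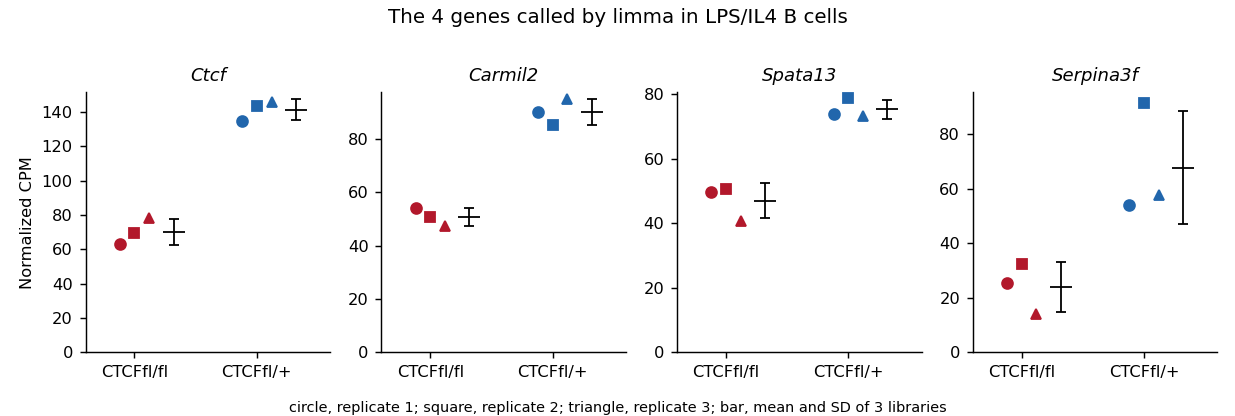
The CPM of each library are plotted for the 4 genes called by limma, with CTCFfl/fl left of CTCFfl/+ and bars at the group means and their SD (n = 3). In each gene the 3 CTCFfl/fl points lie below the 3 CTCFfl/+ points, with means of 70.3 and 141 CPM for Ctcf, 50.6 and 90.2 for Carmil2, 47.0 and 75.3 for Spata13 and 23.9 and 67.7 for Serpina3f.

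The interferon-induced GTPases lay lower in CTCFfl/fl cells as a family, although limma called none of them. All 16 tested GBP and IRG genes had a negative log2 fold change (-2.79 to -0.04, median -0.42), against a median of -0.001 over all genes. Negative values were found for 6028 of all 11962 genes. The groups lay apart, with all CTCFfl/fl libraries the lower ones, in 10 of the 16, as they did in 5.42% of all genes tested. The edgeR exact test called 2 of them (Iigp1 and Tgtp1), and DESeq2 called 3 (Gbp2, Gbp2b and Gbp7). At an unadjusted limma p under 0.05, 11 of the 16 were lower, against 467 of all 11962 genes. Summed over the family, the levels were 1945, 2096 and 1813 CPM in CTCFfl/fl and 2344, 3048 and 2602 CPM in CTCFfl/+ libraries. Leaving out any library, or changing the normalization or the filter, kept the family median between -0.51 and -0.34. Of the 3 NK cell markers tested, Gzma and Gzmb had negative log2 fold changes (-1.96 and -0.48) and Prf1 a positive one (0.26). The part of NK cells in the values of the family was not tested.

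Iigp1, an IRG GTPase that disrupts the vacuole of Toxoplasma, showed the greatest difference of the family. It had 7.63, 23.7 and 3.09 CPM in CTCFfl/fl and 41.0, 101 and 55.1 CPM in CTCFfl/+ libraries. The mean of the CTCFfl/fl group was 17.5% of the CTCFfl/+ mean, and the spread within each group was wide. The log2 fold change was -2.79 (standard error 0.47), just outside the threshold of limma (adjusted p = 0.053), and was called by the edgeR exact test (adjusted p = 0.002) but not by DESeq2 (adjusted p = 0.29). The IRG gene Tgtp1 had 37.7, 61.9 and 29.4 CPM in CTCFfl/fl and 68.6, 133 and 98.0 CPM in CTCFfl/+ cells. Its groups lay apart, at a log2 fold change of -1.22 (adjusted p = 0.10 in limma, 0.0018 in the edgeR exact test and 0.29 in DESeq2). Tgtp2, a close copy of Tgtp1 with which reads may be shared, had a log2 fold change of -0.45.

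The guanylate-binding proteins differed by less and more evenly. Gbp2 had 556, 534 and 402 CPM in CTCFfl/fl and 636, 807 and 730 CPM in CTCFfl/+ libraries. Gbp7 had 137, 142 and 132 CPM in CTCFfl/fl and 177, 212 and 177 CPM in CTCFfl/+ libraries. The groups lay apart in both genes. The log2 fold changes were -0.55 for Gbp2 (adjusted p = 0.19 in limma and 0.0087 in DESeq2) and -0.45 for Gbp7 (0.13 in limma and 0.0034 in DESeq2). The edgeR exact test called neither (adjusted p = 0.15 for Gbp2 and 0.061 for Gbp7). Gbp2b stood at -0.40, Gbp4 at -0.39, Gbp8 at -0.48 and the IRG gene Igtp at -0.43, and Gbp9 was close to 0 at -0.04. The annotated spans of Gbp4, Gbp8 and Gbp9 overlap, as do those of Igtp and Irgm2, and their reads could be split between them.

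**Figure D4:**
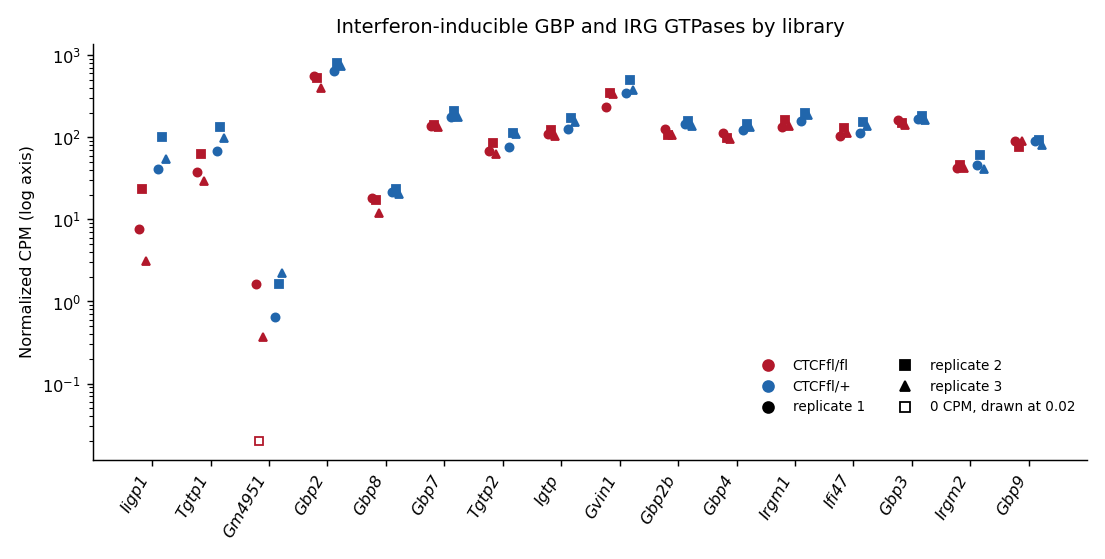
The CPM of every library are shown for the GBP and IRG genes on a log axis, CTCFfl/fl (red) left of CTCFfl/+ (blue), and the open square is a library listed at 0 for Gm4951. All 16 genes have a negative log2 fold change, from -2.79 for Iigp1 to -0.04 for Gbp9.

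The promoters of the family are shown as background, since interferon acts through short promoter elements. RefSeq promoters of GRCm38.p6, each from 250 bases before a start to 50 after it, were at hand for 10 of the 16 genes. Iigp1, with the largest difference, was not among the 10. They were searched on both strands for the core of the interferon-stimulated response element (GAAANNGAAA), which IRF factors bind, and for the core of the gamma-activated site (TTCNNNGAA), which STAT dimers bind. The first was found in 9 of the 10 genes (90%), against 42.31% of 52 other interferon-induced genes and 3.993% of all 27025 genes in the table (3.443% of their 32851 promoters). The other was found in 5 of the 10 (50%), against 17.31% of the other interferon-induced genes and 9.554% of all genes (8.298% of promoters). The 130 bases before the start are given 5′ to 3′ on the strand of the gene, with matches to either core in capitals.
Tgtp1 chr11:48992247-48992376 (-): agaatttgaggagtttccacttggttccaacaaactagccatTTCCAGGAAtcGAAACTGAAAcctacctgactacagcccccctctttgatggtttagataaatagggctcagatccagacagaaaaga
Igtp chr11:58199426-58199555 (+): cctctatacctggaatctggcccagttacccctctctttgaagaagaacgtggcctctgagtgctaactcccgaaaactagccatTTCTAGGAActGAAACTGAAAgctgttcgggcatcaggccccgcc
Gbp2 chr3:142620533-142620662 (+): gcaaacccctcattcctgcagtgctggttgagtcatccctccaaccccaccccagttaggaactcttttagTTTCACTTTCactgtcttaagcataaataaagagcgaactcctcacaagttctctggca
Gbp7 chr3:142530206-142530335 (+): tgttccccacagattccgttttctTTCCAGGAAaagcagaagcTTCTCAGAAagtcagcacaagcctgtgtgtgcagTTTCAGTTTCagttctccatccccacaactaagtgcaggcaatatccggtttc
Serpina3f chr12:104214414-104214543 (+): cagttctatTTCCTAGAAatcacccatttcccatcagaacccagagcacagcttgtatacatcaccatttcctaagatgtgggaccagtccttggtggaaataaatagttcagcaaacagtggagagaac
In Tgtp1 and Igtp a gamma-activated site core lies directly before an interferon-stimulated response element core, and the cores do not overlap. The Serpina3f stretch holds a gamma-activated site core alone. A match describes the letters only, and binding was not measured here. The list was chosen for its induction by interferon, so its share of these cores says nothing about CTCF loss. Among members with both cores Tgtp1 had a log2 fold change of -1.22 and Irgm2 one of -0.16.

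Other interferon genes showed no shift of that size. The median over 66 other interferon-induced genes was -0.06, with 1 call (Serpina3f) and 7 genes with an unadjusted limma p under 0.05, all lower. Across all 11962 genes 467 were lower and 329 higher at that level. Herc6, an E3 ligase gene for ISG15 conjugation in mice, had 35.5, 30.9 and 33.9 CPM in CTCFfl/fl and 41.8, 51.5 and 42.3 CPM in CTCFfl/+ libraries (log2 fold change -0.42, limma adjusted p = 0.34). Nlrc5, the activator of MHC class I genes, had 255, 267 and 218 CPM in CTCFfl/fl and 301, 331 and 307 CPM in CTCFfl/+ libraries (-0.35, limma adjusted p = 0.34). Both had groups apart and neither passed the test. Over 21 MHC class I presentation genes the median was -0.04, and the peptide transporter genes Tap1 and Tap2 stood at -0.22 and -0.23. Over 18 interferon receptors and signal transducers it was -0.02, with 4 at an unadjusted limma p under 0.05, all of them lower. They included the transcription factor Irf1, with 199, 226 and 159 CPM in CTCFfl/fl and 250 CPM in each of the 3 CTCFfl/+ libraries (-0.37, limma adjusted p = 0.40), and the receptor chain Ifnar1 (-0.28).

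Further genes linked to interferon gamma varied between libraries within a genotype. Tbx21, which encodes T-bet, had 12.9, 42.5 and 10.8 CPM in CTCFfl/fl and 35.5, 50.2 and 46.0 CPM in CTCFfl/+ libraries. Cxcr3, a chemokine receptor gene that T-bet activates, had 1.23, 9.97 and 0.589 CPM in CTCFfl/fl and 7.40, 25.4 and 13.4 CPM in CTCFfl/+ libraries. Replicate 2 was the highest in each genotype for both genes, as for Iigp1, Tgtp1 and Serpina3f, and the groups overlapped. Both were chosen after their values had been seen, and limma gave adjusted p values of 0.37 for Tbx21 and 0.29 for Cxcr3. Without CTCFfl/fl replicate 2, the library that made the groups overlap, the adjusted p of Tbx21 was 4.3e-06 and that of Cxcr3 8.4e-05 in limma. Leaving that library out forces the groups apart, so these 2 values support nothing by themselves. With any other library left out the limma adjusted p lay between 0.22 and 0.998 for Tbx21. It then lay between 0.13 and 0.998 for Cxcr3. Ifng itself had at most 1.23 CPM in CTCFfl/fl and at most 5.24 CPM in CTCFfl/+ cells, and the part of the cytokine in these values was not tested.

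Of 29 costimulatory and adhesion molecules tested, 9 were lower and 1 higher at an unadjusted limma p under 0.05, and the median was -0.09. Over all 11962 genes 467 were lower and 329 higher at that level. limma called none of the 29, while the exact test called 2 lower and DESeq2 3. Cd86, the ligand of CD28 on T cells, had 118, 104 and 82.3 CPM in CTCFfl/fl and 155, 141 and 143 CPM in CTCFfl/+ libraries, with no overlap (log2 fold change -0.54, adjusted p = 0.16 in limma and 0.0094 in DESeq2). Ccr7, the receptor that guides lymphocytes to T cell zones, had 200, 235 and 184 CPM in CTCFfl/fl and 328, 261 and 281 CPM in CTCFfl/+ libraries (-0.49, adjusted p = 0.16 in limma and 0.0094 in DESeq2). The exact test did not call Ccr7 (adjusted p = 0.15). Cytip, which encodes a cytohesin partner that loosens integrin adhesion, had 328, 351 and 216 CPM in CTCFfl/fl and 504, 467 and 500 CPM in CTCFfl/+ libraries (-0.75, adjusted p = 0.092 in limma and 0.00049 in DESeq2). In all 3 genes the CTCFfl/fl libraries lay below the CTCFfl/+ libraries.

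Further genes called lower by the exact test or DESeq2 were outside that list. Pecam1, an adhesion molecule with inhibitory motifs, had 61.2, 68.8 and 59.6 CPM in CTCFfl/fl and 82.0, 91.8 and 93.7 CPM in CTCFfl/+ libraries (-0.49, adjusted p = 0.12 in limma and 0.0064 in the exact test). The early activation marker Cd69, which holds lymphocytes in tissue, had 31.8, 32.5 and 34.9 CPM in CTCFfl/fl and 40.9, 49.8 and 48.4 CPM in CTCFfl/+ libraries (log2 fold change -0.48, adjusted p = 0.21 in limma and 0.025 in DESeq2). The integrin chain gene Itgb3 had 170, 139 and 126 CPM in CTCFfl/fl and 226, 191 and 182 CPM in CTCFfl/+ libraries (-0.47, adjusted p = 0.27 in limma and 0.039 in DESeq2). The exact test did not call Itgb3 (adjusted p = 0.20). Ly6c2, a surface antigen gene of plasma cells and memory T cells, had 7.63, 11.9 and 6.59 CPM in CTCFfl/fl and 15.3, 21.9 and 18.4 CPM in CTCFfl/+ libraries (-1.08, adjusted p = 0.092 in limma and 0.00097 in DESeq2). The groups lay apart in each of these genes, and none passed limma's test. Igha, the constant region of IgA, had 3.14, 2.54 and 2.32 CPM in CTCFfl/fl and 7.47, 3.73 and 9.78 CPM in CTCFfl/+ libraries (-1.16, adjusted p = 0.29 in limma and 0.012 in DESeq2).

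Genes with higher values in CTCFfl/fl cells were fewer among the calls. Groups lay apart upwards in 5.62% of all genes, about as often as downwards. Spock2, a proteoglycan gene, had 14.2, 10.5 and 13.3 CPM in CTCFfl/fl and 7.0, 6.17 and 5.59 CPM in CTCFfl/+ libraries (log2 fold change 0.96, adjusted p = 0.091 in limma and 0.0016 in the exact test). Srgap3, a GTPase-activating protein gene for Rac, had 14.0, 16.6 and 19.2 CPM in CTCFfl/fl and 10.8, 7.07 and 7.53 CPM in CTCFfl/+ libraries (0.94, adjusted p = 0.10 in limma and 0.0032 in the exact test). Egr2, an immediate early factor induced by antigen receptor signals, had 64.0, 62.6 and 71.2 CPM in CTCFfl/fl and 54.0, 35.9 and 41.5 CPM in CTCFfl/+ libraries (0.60, adjusted p = 0.16 in limma and 0.027 in the exact test). The groups lay apart in each of these genes. Rpia, an enzyme of the pentose phosphate pathway, differed little between replicates, with 93.6, 91.9 and 93.0 CPM in CTCFfl/fl and 67.9, 71.1 and 72.2 CPM in CTCFfl/+ libraries (0.40, adjusted p = 0.16 in limma and 0.012 in DESeq2). The activation receptor CD30, encoded by Tnfrsf8, had 66.0, 38 and 49.1 CPM in CTCFfl/fl and 33.6, 27.9 and 33.9 CPM in CTCFfl/+ libraries (0.64, adjusted p = 0.29 in limma and 0.025 in DESeq2).

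Several low or duplicated genes among these differences are uncertain. Trpc2, the gene called higher by the quasi-likelihood test (adjusted p = 0.016), had 1.19, 3.06 and 1.22 CPM in CTCFfl/fl cells and was listed at 0 in the 3 CTCFfl/+ libraries. It passed the filter of 1 CPM only through the CTCFfl/fl libraries, so its gap and its call support nothing by themselves. In the T cell cultures its means were 0 CPM in CTCFfl/fl and 0.836 CPM in CTCFfl/+ cells. Eps8l1 had a log2 fold change of 2.34, which was 1.24 without CTCFfl/fl replicate 1, with 40.3, 6.05 and 2.17 CPM in CTCFfl/fl and 0.363, 2.08 and 1.98 CPM in CTCFfl/+ libraries. Hist2h2aa2 had 5.81, 6.76 and 6.26 CPM in CTCFfl/fl and 0, 1.69 and 1.51 CPM in CTCFfl/+ libraries, while its near-identical copy Hist2h2aa1 showed the opposite order. Hist2h2aa1 had 1.23, 1.42 and 2.87 CPM in CTCFfl/fl and 6.45, 4.06 and 5.47 CPM in CTCFfl/+ libraries. The log2 fold changes of the pair were 2.38 and -1.36, and their reads may have been divided differently between the libraries.

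The medians of the genes of the stimulus itself stayed close to that of all genes. Of 26 genes of LPS sensing and TLR4 signalling none reached an unadjusted limma p under 0.05 and the median was -0.02. Tlr4 had 5.64, 6.05 and 5.16 CPM in CTCFfl/fl and 7.94, 5.71 and 7.26 CPM in CTCFfl/+ libraries, which overlapped. Of 30 NF-kB subunits and targets 1 was higher and 3 lower at that level (median 0.01), and of 19 genes of the IL4 receptor, STAT6 and its targets 4 were higher and 2 lower (median 0.09). Over all 11962 genes 329 were higher and 467 lower, a smaller share than in the NF-kB and IL4 lists. Il4ra, the IL4 receptor chain that STAT6 also induces, had 588, 486 and 627 CPM in CTCFfl/fl and 474, 500 and 458 CPM in CTCFfl/+ libraries (log2 fold change 0.24, limma adjusted p = 0.68). The STAT6 target Ccl22 had 122, 146 and 139 CPM in CTCFfl/fl and 115, 117 and 99.7 CPM in CTCFfl/+ libraries (0.29, limma adjusted p = 0.51). None of these genes passed limma's test. Cd86, also on the IL4 list, was called lower by the edgeR exact test (adjusted p = 0.039) and by DESeq2 (adjusted p = 0.0094).

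Class switch genes lay near 0 as well, with a median of -0.002 over 35 genes, 1 higher and 3 lower at an unadjusted limma p under 0.05. Across all 11962 genes 329 were higher and 467 lower at that level. The transcript of the IgG1 constant region, Ighg1, had 433, 261 and 317 CPM in CTCFfl/fl and 340, 272 and 299 CPM in CTCFfl/+ libraries. The groups overlapped. The log2 fold change was 0.12 (95% confidence interval -0.18 to 0.43, limma adjusted p = 0.94). Prdm1, which encodes the plasma cell factor Blimp-1, had 14.2, 19.1 and 18.6 CPM in CTCFfl/fl and 20.3, 29.0 and 20.6 CPM in CTCFfl/+ libraries, a log2 fold change of -0.41 (limma adjusted p = 0.63). In the T cell cultures it was 1.27 log2 units higher in CTCFfl/fl cells (limma adjusted p = 0.0055), and the effects of the 2 cultures differed by -1.69 (limma interaction adjusted p = 0.010). The median over 18 plasma cell genes was -0.03.

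Genes of growth and metabolism showed small shifts. Of 40 genes of the ATF4 and amino acid response 33 had positive log2 fold changes, with a median of 0.15, 7 of them at an unadjusted limma p under 0.05 and none lower at that level. Over all 11962 genes 5934 had positive values, and 329 were higher and 467 lower at that level. Atf5, a transcription factor of this stress response, had 35.1, 29.5 and 38.1 CPM in CTCFfl/fl and 22.4, 23.6 and 24.2 CPM in CTCFfl/+ libraries (log2 fold change 0.53, adjusted p = 0.20 in limma and 0.023 in DESeq2). Phgdh, the first enzyme of serine synthesis, had 218, 217 and 223 CPM in CTCFfl/fl and 166, 202 and 170 CPM in CTCFfl/+ libraries (0.30, limma adjusted p = 0.45). In both genes the CTCFfl/fl libraries lay above the CTCFfl/+ libraries, and limma called no gene of the list. The median was 0.09 over 36 genes of Myc and ribosome biogenesis, with 6 higher and 2 lower at an unadjusted limma p under 0.05. Odc1, the polyamine enzyme that Myc activates, lay the other way with 289, 300 and 264 CPM in CTCFfl/fl and 384, 366 and 353 CPM in CTCFfl/+ libraries (-0.37, adjusted p = 0.21 in limma and 0.012 in DESeq2). The edgeR exact test did not call Odc1 (adjusted p = 0.37).

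Cell division genes differed little. The median was -0.02 over 39 genes of G1/S and DNA replication and -0.09 over 32 genes of G2/M and mitosis, 28 of which had negative log2 fold changes, 1 of them at an unadjusted limma p under 0.05. That gene, Cenpa, the centromeric histone H3, had 161, 176 and 133 CPM in CTCFfl/fl and 191, 178 and 194 CPM in CTCFfl/+ libraries (log2 fold change -0.27, limma adjusted p = 0.61). Of 32 p53 targets 4 were higher and 1 lower at that level, with a median of 0.07. Across all 11962 genes 6028 had negative log2 fold changes, and 329 were higher and 467 lower at that level. The medians were -0.04 over 32 genes of cohesin and other architectural factors, which work with CTCF, -0.03 over 34 chromatin-modifying enzymes, -0.02 over 46 genes of B-cell receptor signalling and 0.04 over 17 MHC class II presentation genes. limma called none of these genes. Tet2, a DNA demethylating enzyme, had 88.3, 79.5 and 71.7 CPM in CTCFfl/fl and 121, 110 and 87.7 CPM in CTCFfl/+ libraries (-0.40, limma adjusted p = 0.40).

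**Figure D5:**
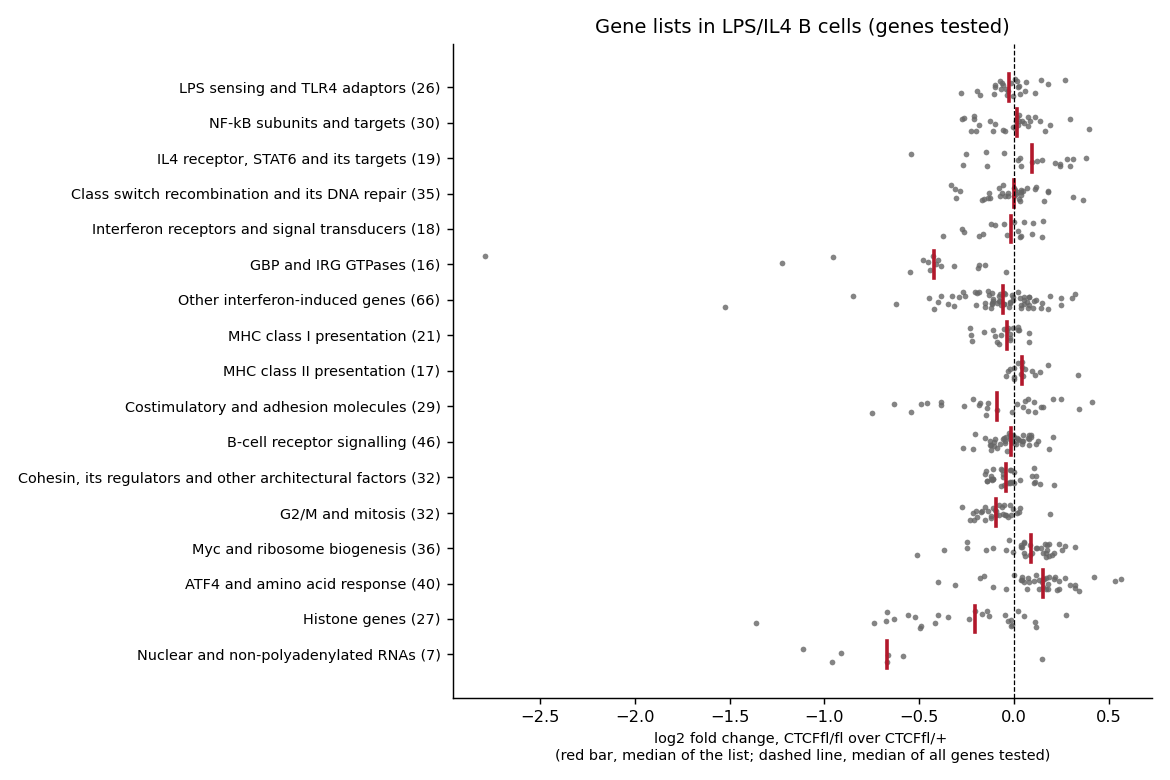
Each point is a gene of the named list at its log2 fold change of CTCFfl/fl over CTCFfl/+, the red bar is the median of the list and the dashed line that of all genes tested. The GBP and IRG genes lie below 0 with a median of -0.42, the nuclear RNAs and histone genes have medians of -0.67 and -0.21, the ATF4 list has one of 0.15, and the others lie between -0.09 and 0.09.

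The makeup of the libraries was examined beside these values. Among 7 nuclear or non-polyadenylated RNAs 6 were lower at an unadjusted limma p under 0.05, with a median of -0.67. As many as 467 of all 11962 genes were lower at that level. Malat1, a nuclear long noncoding RNA, had 292, 360 and 428 CPM in CTCFfl/fl and 608, 759 and 392 CPM in CTCFfl/+ libraries. Rn7sk, the small RNA that holds back the elongation factor P-TEFb, had 22, 21.9 and 20.7 CPM in CTCFfl/fl and 55.6, 69.8 and 26.8 CPM in CTCFfl/+ libraries. CTCFfl/+ replicate 3 lay close to the CTCFfl/fl libraries in both, and the sums of the list were 868 to 939 CPM in CTCFfl/fl and 991 to 1542 CPM in CTCFfl/+ cells. Histone genes, most of whose transcripts lack a poly(A) tail, had a median of -0.21 over 27 genes, with 5 lower and none higher at an unadjusted limma p under 0.05. The part of library preparation in the levels of these RNAs was not tested. CTCFfl/fl replicate 1 and CTCFfl/+ replicate 1 held the Y-linked transcript Ddx3y at 716 and 780 CPM and hardly any Xist, and the other 4 libraries had 279 to 486 CPM of Xist. This split was balanced between the genotypes. With a term for it, chosen after seeing the data, limma kept 3 of its 4 calls and the adjusted p of Serpina3f was 0.069.

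The genotype effect in LPS/IL4 was set against that in the T cell cultures by an interaction term in limma over all 12 libraries. It differed in 897 of 11847 genes (7.57%), 437 with a more positive and 460 with a more negative effect in LPS/IL4. Among the genes described here were Cytip, with -0.75 in LPS/IL4 and 1.03 in the T cell cultures, Cd86, with -0.54 and 0.77, and Ccr7, with -0.49 and 0.68 (interaction adjusted p = 0.00063, 0.0015 and 0.0011 in limma). Egr2 went the other way, with 0.60 in LPS/IL4 and -0.69 in the T cell cultures (interaction adjusted p = 0.0028 in limma). For the GBP and IRG genes no difference between the cultures was detected in any of the 15 that could be tested (lowest limma interaction adjusted p = 0.069, for Iigp1), and their median in the T cell cultures was -0.20. There limma called 6 of the 15 lower and 0 higher. Of the 11847 genes tested in both cultures it called 1050 lower and 1176 higher in the T cell cultures. Whether both cultures were handled together is not given in the sources used here. The T cell libraries held fewer recovered reads (6934344 to 11227004) than the LPS/IL4 libraries (23469188 to 28130440). For most genes named here the level over both genotypes was close in the 2 cultures, although the stimuli differed. Gbp2 had group means of 497 and 724 CPM in LPS/IL4 and 522 and 672 CPM in the T cell cultures (CTCFfl/fl and CTCFfl/+). In the same order Cytip had 298 and 490 against 538 and 263 CPM, and Il4ra 567 and 477 against 418 and 636 CPM. Whether the values had been adjusted between the cultures was not tested. The CPM and the recovered reads may thus not be the levels first measured.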

How the data were processed

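Polyadenylated RNA was sequenced as single reads. Per the labels and the submitters' processing notes, the reads were demultiplexed with CASAVA 1.8, trimmed with cutadapt, quantified with RSEM 1.17 on GRCm38 and normalized with edgeR, and the deposited table holds CPM per gene. In each library 100% of the CPM were multiples of the same smallest value (to within 0.01 of a read), and these multiples served as recovered reads, 23469188 to 28130440 a library. They may not be the reads first counted. The LPS/IL4 libraries were fitted alone by limma 3.58.1 (R 4.3.3) with a variance trend, on log2 of CPM plus a pseudocount of 0.5, and calls were made below 0.05 after Benjamini-Hochberg adjustment. This scale understates changes of low genes. Recovered reads were tested with edgeR 4.0.16 (exact and quasi-likelihood tests) and DESeq2 1.42.0. The filter of 1 CPM left out 737 genes, and 232 tested genes reached 1 CPM in exactly 3 libraries (median level 1.05 CPM), against 219 left out with exactly 2 (0.872 CPM). Members and lists were chosen with earlier results of these data known.

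Named were all limma calls, calls by the other tests, the 8 largest rises and falls among genes with groups apart, an unadjusted p under 0.05 and a mean of at least 5 CPM, up to 4 members of each list by p with those showing its range, and genes within 250 kb of Ctcf. Of these the text gives a selection. Predicted genes, Riken clones and pseudogenes were counted but not named. Tbx21, Cxcr3, Ifng, Ighg1, Hist2h2aa2 and a few list members were added after their values were seen. Alternatives were the pseudocount, the filter, the normalization, the variance trend, a replicate block, a fit of all 12 libraries and leaving out each library. A term for Y-linked transcripts and a fit of the libraries with Xist were chosen after seeing the data. Some genes of the lists are counted but not reported here by name.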

Additional observations from a re-analysis of the deposited data

Results flagged for a closer look

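The genotype effect differed between the LPS/IL4 and the T cell cultures, by an interaction term in limma at an adjusted p under 0.05, in 897 genes, and 36 of the genes chosen for naming are among them. The values are the log2 fold change of CTCFfl/fl over CTCFfl/+ in LPS/IL4 minus that in the T cell cultures. Lower in LPS/IL4 were Spata13 (-2.05), Igha (-1.97), Cytip (-1.77), Prdm1 (-1.69), Eng (-1.50), Cd86 (-1.31), Ccr7 (-1.17), Pecam1 (-1.12), Bcl2l11 (-1.07), Itgb3 (-1.02), Mxd1 (-0.98), Sipa1l1 (-0.91), Cenpa (-0.84), Jak3 (-0.73), Pard6a (-0.69), Ifnar1 (-0.61), Carmil2 (-0.56), Irf1 (-0.51), Nlrc5 (-0.43), Tap1 (-0.38). Higher in LPS/IL4 were Hist2h2aa2 (4.28), Spsb1 (1.61), Rab35 (1.59), Tnfrsf8 (1.46), Slc1a4 (1.31), Egr2 (1.30), Il4i1 (1.08), Ncs1 (1.06), Ccl22 (1.03), Polr1b (0.94), Il4ra (0.84), Atf5 (0.84), Ighg1 (0.75), Shmt2 (0.71), Phgdh (0.64), Rpia (0.37). Hist2h2aa2 and Igha rest on few reads, and Hist2h2aa2 has a near-identical copy.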

How the results depend on the processing

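limma called 4 genes in LPS/IL4. The count was 7 with a pseudocount of 1, 2 without the filter, 2 after quantile normalization, 1 without the variance trend, 32 with the edgeR exact test, 37 with DESeq2 and 7 in the 4 libraries with Xist (chosen after seeing the data), and it lay between 2 and 62 with each library left out. Without the variance trend the 1 call was a pseudogene, and the adjusted p of Ctcf was 0.13 at a log2 fold change of -1.01. The 32 calls of the exact test became 4 with the quasi-likelihood test and 17 with a mean of at least 5 CPM, and lay between 9 and 97 with each library left out. The 897 interaction genes became 388 without the variance trend and lay between 503 and 947 with each library left out. The cause of these shifts was not tested. With the replicate number as a block limma called 18 genes, 2 higher and 16 lower. Deviations of same-numbered libraries correlated at 0.29, 0.098 and -0.20. These values do not settle whether the numbers pair the samples. The replicate 1 libraries of both genotypes held Y-linked transcripts. With the block the interaction held 604 genes. Of 1611 alternative values for 81 other genes chosen for naming 1492 stayed on their side of the threshold, 20 lost and 98 gained a call, and 1 turned in direction, that of Ighg1 without CTCFfl/fl replicate 1. With each library left out Ighg1 lay between -0.074 and 0.29. Of 719 alternative list medians 686 moved by less than 1 SD of the library medians. With 3 libraries a group, the spread between pools limits abundant genes and the number of reads limits low ones, some of which sit at 1 recovered read in a library.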
